A study of Mus musculus with 12 samples.

Results

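miR-9 is a small RNA of the nervous system whose precursor yields a mature miRNA from each side of its hairpin, miR-9-5p and miR-9-3p, and the mouse annotation adds a pair of arms on the opposite strand, miR-9b-5p and miR-9b-3p. These 4 entries were taken by name from read counts of 1084 small RNAs in adipose tissue extracellular vesicles (EVs, membrane particles that cells release) and of 1158 in the hippocampus, and all 4 were present in both. The libraries came from male wild-type C57BL/6J mice after 12 weeks of chow or of a high-fat diet (HFD), and numbered 3 for each combination of diet and sample type. The columns taken as chow hippocampus are headed LFD, so that assignment is an inference. The labels do not say whether the libraries of a group are separate animals or pools, so p-values measure the spread between libraries, which may be technical. The 4 entries were chosen by their name, with the higher miR-9 level in HFD EVs and the high miR-9-5p level in hippocampus already known from these counts. Values of the EV diet contrast and the levels in each tissue are therefore a description without a test.

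In the developing mouse brain miR-9-5p restrains progenitor genes such as Nr2e1 (Tlx) and Hes1 and so favours neuronal differentiation. miR-9-3p acts there together with miR-124, the most typical neuronal miRNA, on a subunit of a chromatin remodelling complex that is exchanged when neurons mature. In human cells miR-9-5p acts on the neuronal gene repressor REST and miR-9-3p on its partner CoREST, and in human monocytes and neutrophils bacterial lipopolysaccharide raises miR-9.

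The mature sequences are shown because they decide what the counts can tell apart. All 4 entries matched RefSeq (build GRCm38.p6). Capitals mark the seed, bases 2 to 8, which pairs with target transcripts.
mmu-miR-9-5p: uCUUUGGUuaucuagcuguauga
mmu-miR-9b-3p: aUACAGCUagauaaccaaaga
mmu-miR-9-3p: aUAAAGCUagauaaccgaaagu
mmu-miR-9b-5p: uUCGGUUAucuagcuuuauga
reverse complement of miR-9b-3p: ucuuugguuaucuagcuguau
reverse complement of miR-9b-5p: ucauaaagcuagauaaccgaa
The 4 seeds differ from each other, and no other mature miRNA of the RefSeq table holds any of them. As a reverse complement, all 21 bases of miR-9b-3p equal bases 1 to 21 of miR-9-5p, which has 2 bases more. miR-9b-5p matches miR-9-3p in the same way over 19 bases, from position 1 to 19, and reaches 2 bases beyond its start.

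RefSeq places the miR-9 arms in 3 hairpins of the plus strand, printed here with the arms in capitals to show that the arms are the same and the loops are not.
Mir9-1: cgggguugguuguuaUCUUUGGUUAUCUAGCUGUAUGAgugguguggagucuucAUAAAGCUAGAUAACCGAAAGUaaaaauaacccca
Mir9-2: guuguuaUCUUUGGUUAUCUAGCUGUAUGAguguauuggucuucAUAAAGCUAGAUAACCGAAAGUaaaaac
Mir9-3: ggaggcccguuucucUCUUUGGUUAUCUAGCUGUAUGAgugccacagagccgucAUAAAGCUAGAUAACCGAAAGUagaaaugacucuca
Mir9-1 lies at chr3:88215598-88215686, inside the lincRNA gene Gm3764 but outside its exons. Mir9-2 lies at chr13:83738814-83738885 and overlaps an exon of lincRNA C130071C03Rik. Mir9-3 lies at chr7:79505264-79505353 inside the lincRNA gene Mir9-3hg but outside its exons (GENCODE M21, GRCm38). A count of a mature arm therefore sums over the 3 loci. RefSeq places miR-9b-3p on the minus strand at all 3 of them and miR-9b-5p on chromosomes 3 and 7.

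The antisense entry miR-9b-3p carried nearly the same counts as miR-9-5p. Its counts were 287, 230 and 382 in chow EV libraries and 4009, 2488 and 390 in HFD EV libraries, against 287, 230, 387, 4034, 2502 and 390 counts of miR-9-5p. They were equal in 3 of 6 EV libraries and at least 98.7% of the miR-9-5p count in the others. In hippocampus miR-9b-3p reached between 99.7% and 99.8% of the miR-9-5p count in each library. miR-9b-3p is therefore not read below as a separate miRNA. miR-9-5p and miR-9b-3p together made up 47.0 ± 8.89% of all counts in chow and 42.5 ± 0.848% in HFD hippocampus (SD, n = 3). With entries of nearly equal counts kept once, miR-9-5p alone made up 31.7 ± 7.85% and 27.5 ± 0.699% of hippocampal counts.

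miR-9b-5p overlaps miR-9-3p in part and did not copy its counts. Its counts as a share of those of miR-9-3p were 40.0%, 44.7% and 14.9% in EVs on chow and 20.4%, 15.5% and 6.37% on HFD. In hippocampus the share was 2.34%, 3.16% and 0.344% in chow and 3.21%, 2.43% and 3.07% in HFD libraries, below each EV library. Mature miRNAs that lie on opposite strands of the same bases, with at least 5 CPM (counts scaled to a library of 1e6 counts) for the more abundant one, formed 14 pairs in EVs and 21 in hippocampus, among them miR-142a-3p with miR-142b. In 7 and 10 of them, miR-9-5p with miR-9b-3p included, the 2 counts differed by at most 5% in each library. Where the less abundant one lay wholly inside the other, this held for 4 of 5 pairs in EVs and 4 of 6 in hippocampus. It also held for 3 of 9 and 6 of 15 of the remaining pairs, so partial overlap alone does not mark pairs with unlike counts. Whether the counting used the strand of a read is not given in the sources used here, and its part in the miR-9b values was not tested.

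**Figure D1:**
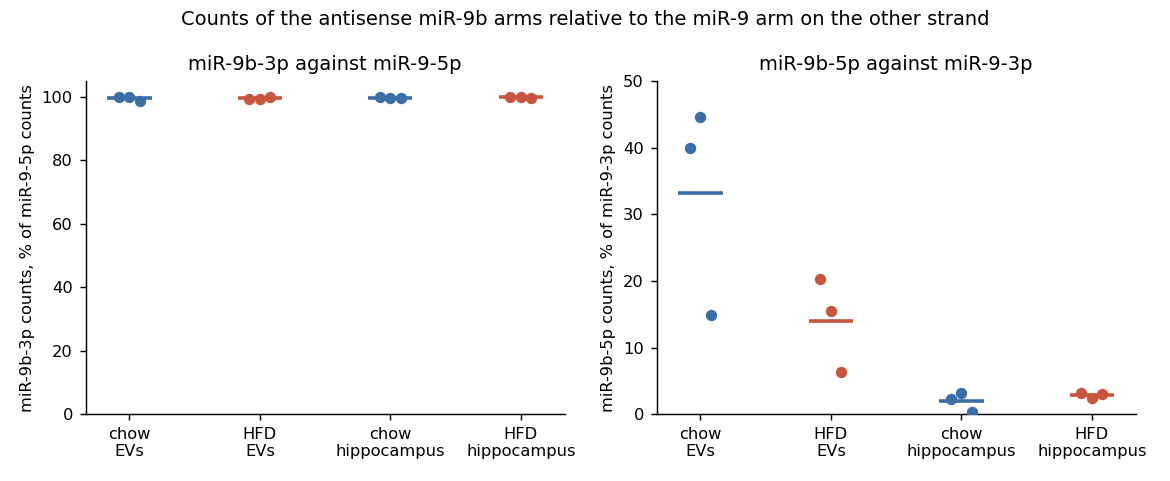
Counts of the antisense arms as a percentage of the counts of the overlapping miR-9 arm, one point per library and a bar at the mean of each group of 3. miR-9b-3p stays at 98.7% of miR-9-5p or above in all libraries, whereas miR-9b-5p ranges from 0.344% to 44.7% of miR-9-3p.

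By mean level over both diets miR-9-5p was above miR-9-3p, and miR-9-3p above miR-9b-5p, in both sample types. In hippocampus miR-9-5p ranked first of 552 miRNAs by mean level and miR-9-3p ranked 46. In EVs the ranks of miR-9-5p and miR-9-3p were 93 and 97 of 389 miRNAs, and miR-9b-5p ranked 193. Levels below are CPM of library totals scaled by TMM, a factor that corrects for composition. EVs and hippocampus were scaled apart, so levels are compared between libraries of 1 sample type only.

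miR-9-3p, the arm that acts with miR-124 in neurons, stood in EVs at 58.1, 41.1 and 103 CPM on chow and at 761, 766 and 590.0 CPM on HFD. Every HFD library lay above every chow library. The means were 67.3 ± 31.9 and 706 ± 100.1 CPM (SD, n = 3), a log2 fold change of 3.39 (SE 0.42), which ranked 1 of 389 miRNAs. The underlying counts were 120, 103 and 154 in chow and 4908, 1658 and 1256 in HFD libraries. In bulk samples of this kind, more cells or vesicles that carry a miRNA and more of it in each cannot be told apart.

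miR-9-5p, the arm that restrains progenitor genes, stood in EVs at 139, 91.8 and 258 CPM on chow and at 625, 1156 and 183 CPM on HFD. HFD libraries 1 and 2 were above all chow libraries, while HFD library 3 lay between chow libraries 1 and 3. The means were 163 ± 85.8 and 655 ± 487 CPM (SD, n = 3), with a log2 fold change of 2.01 (SE 0.70). Without HFD library 2 it was 1.34, and without HFD library 3 it was 2.63.

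miR-9b-5p stood in EVs at 23.2, 18.4 and 15.4 CPM on chow and at 155, 119 and 37.6 CPM on HFD. The groups did not overlap, and HFD library 3 was again the lowest of its group. The means were 19.0 ± 3.98 and 104 ± 60.1 CPM (SD, n = 3), a log2 fold change of 2.45 (SE 0.54). Among chow EV libraries miR-9-5p exceeded miR-9-3p in each library and miR-9b-5p was lowest. In HFD EVs the levels of miR-9-5p and miR-9-3p overlapped.

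**Figure D2:**
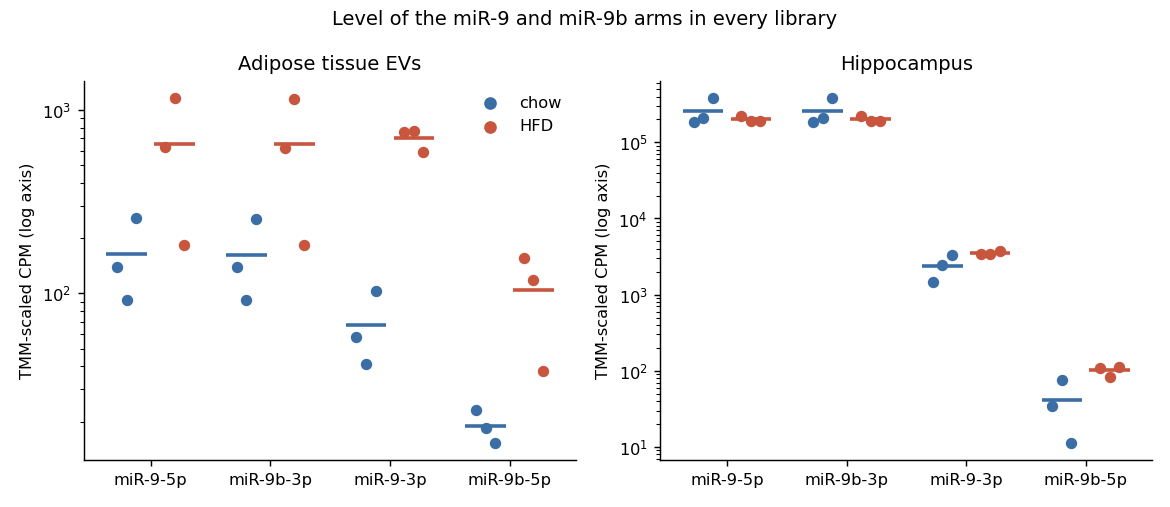
Level of each arm in every library in TMM-scaled CPM on log axes that differ between the panels, with a bar at the mean of each group of 3. In EVs all HFD libraries lie above all chow libraries for miR-9-3p (590.0 CPM and more against at most 103 CPM) and miR-9b-5p, but not for miR-9-5p. In hippocampus miR-9-5p and miR-9b-3p stand far above miR-9-3p and miR-9b-5p.

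Over all miRNAs of EVs, edgeR called 3.34% higher and 1.03% lower in HFD (13 and 4 of 389, adjusted p under 0.05), and 15.7% had all HFD libraries above all chow libraries. Of the 4 entries 2 were called higher, miR-9-3p and miR-9b-5p, and the same 2 did not overlap. The count was 4 with DESeq2 or without the filter on low counts, and 1 without robust fitting, when miR-9b-5p was not called. These numbers include miR-9b-3p, which nearly repeats the counts of miR-9-5p. Nothing is read from them, because the entries were taken with this contrast known. Leaving out chow library 1, chow library 2, HFD library 1 or HFD library 2 brought the calls of edgeR to 0 among the 4 entries and 0 in all, while 80, 95, 82 and 66 miRNAs had an unadjusted p under 0.05. The entries called numbered 1 without chow library 3 and 4 without HFD library 3. With libraries scaled by totals alone 33 miRNAs were called higher and 5 lower in EVs, and the median over all miRNAs tested went from -0.13 to 0.16 on the log2 scale. The log2 fold change of miR-9-3p was then 3.79.

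The same diets were compared in hippocampus, where miR-9-5p is abundant. Of the 4 entries 0 were called there by edgeR's quasi-likelihood test with Benjamini-Hochberg adjustment over 552 miRNAs, and 0 by DESeq2. The unadjusted p of edgeR was under 0.05 for 1 of them, miR-9b-5p, and for 164 of all 552 miRNAs tested. For comparison, edgeR called 4.35% of all miRNAs higher and 7.43% lower in HFD hippocampus (24 and 41 of 552). With libraries scaled by totals alone it called 17 higher and 16 lower, and the median over all miRNAs went from -0.13 to 0.032 on the log2 scale. HFD hippocampus libraries were deeper, at 11143775 to 12874600 counts against 2331091 to 5723918 in chow, so depth and diet cannot be told apart.

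miR-9-5p stood at 186739, 211811 and 379329.7 CPM in chow and at 221242, 192219 and 189628 CPM in HFD hippocampus. The chow and HFD values overlapped, and chow library 3 was the highest. The change on the log2 scale was -0.37 (SE 0.31, adjusted p = 0.433), and 0.071 (adjusted p = 0.799) without chow library 3. miR-9b-3p gave the same log2 changes and adjusted p to these digits. That library held the fewest counts of the hippocampus libraries, and the miRNAs of red cells and leukocytes were mostly high in it. The red cell miR-451a stood at 554 CPM against 246 and 198 CPM in the other chow libraries, while miR-144-3p of the same list was lowest in it, at 6.25 against 8.80 and 6.30 CPM. Members of the leukocyte list were higher in it than in the other chow libraries, some at low levels, such as miR-223-5p (2.27 CPM) and miR-155-5p (2.84 CPM). The share of all miRNAs that were highest in it was not computed, so nothing is read from this. miRNAs outside these lists, such as miR-21a-5p, were highest in it as well. Its TMM factor was the lowest of the hippocampus libraries, at 0.755 against 1.11 and 0.999 in the other chow libraries. The part of depth or blood in this difference was not tested.

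miR-9-3p stood at 1479, 2418 and 3298 CPM in chow and at 3408, 3378 and 3690.2 CPM in HFD hippocampus. Every HFD library was above every chow library, as in 16.3% of all miRNAs tested. The means were 2398 ± 909.5 and 3492 ± 172 CPM (SD, n = 3), which is 0.54 on the log2 scale (SE 0.28, adjusted p = 0.231). Without chow library 3 it was 0.89 (adjusted p = 0.0458), and edgeR then called 123 miRNAs in place of 65. Without chow library 1 it was 0.31 (adjusted p = 0.321).

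miR-9b-5p stood at 34.6, 76.3 and 11.4 CPM in chow and at 109, 82.2 and 113 CPM in HFD hippocampus, again without overlap. The lowest value rested on 20 counts in chow library 3. HFD exceeded chow by 1.29 on the log2 scale (SE 0.55, adjusted p = 0.164), a difference that did not pass. It was 2.21 (adjusted p = 0.0548) without chow library 2. Without overlap were thus 2 of the 4 entries.

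The balance of the arms was followed as the ratio of miR-9-5p to miR-9-3p counts within a library, which depends on neither depth nor scaling. For EVs the ratios were 2.39, 2.23 and 2.51 on chow and 0.822, 1.51 and 0.311 on HFD. The 5p arm was thus the more abundant one in each chow library, and the 3p arm in HFD libraries 1 and 3. The log2 ratio was 1.25 ± 0.086 in chow and -0.46 ± 1.15 in HFD EVs (SD, n = 3), a difference of -1.71 that lay between -2.23 and -1.09 when single libraries were left out.

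In hippocampus the 5p arm outnumbered the 3p arm 126, 87.6 and 115 times in chow and 64.9, 56.9 and 51.4 times in HFD libraries. Every HFD ratio was below every chow ratio. The log2 ratio was 6.76 ± 0.27 in chow and 5.84 ± 0.17 in HFD hippocampus (SD, n = 3), a difference of -0.91 with an exact permutation p of 0.1, two-sided, the smallest that 3 against 3 libraries can give. The test therefore could not pass, and leaving out single libraries moved the difference between -1.07 and -0.80.

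The same ratio was computed for all hairpins with both arms at 10 CPM or more on average over the libraries of the sample type. To each count 0.5 was added. An arm can pass this limit through the diet in which it is high. Among 79 hairpins in EVs the median shift was 0.024 on the log2 scale and that of miR-9 was -1.70, the lowest but for miR-30b (-1.99) and miR-223 (-1.95). The largest shifts upward were those of miR-362 (2.76), miR-98 (1.88) and miR-27b (1.61). In chow EVs miR-362-5p stood at 4.36, 3.99 and 13.3 CPM and miR-27b-5p at 6.78, 7.98 and 4.67 CPM. There miR-30b-3p stood at 10.6, 7.98 and 7.34 CPM, so the shifts of miR-362, miR-27b and miR-30b rest on low chow levels. HFD ratios below all chow ratios were found in 13.9% of EV hairpins (11 of 79), miR-9 among them.

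Among 88 hairpins in hippocampus miR-9 ranked 12 from the lowest, and 23 hairpins, itself and miR-9b included, shifted at least as far in either direction. HFD ratios below all chow ratios were seen in 22.7% of them (20 of 88). The lowest shifts were those of miR-200a (-2.41), miR-27a (-1.99) and miR-423 (-1.56). The highest was listed for miR-9b (1.98), ahead of miR-28a (1.91) and miR-770 (1.89). The ratio of miR-9b sets miR-9b-5p against miR-9b-3p, whose counts are nearly those of miR-9-5p.

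**Figure D3:**
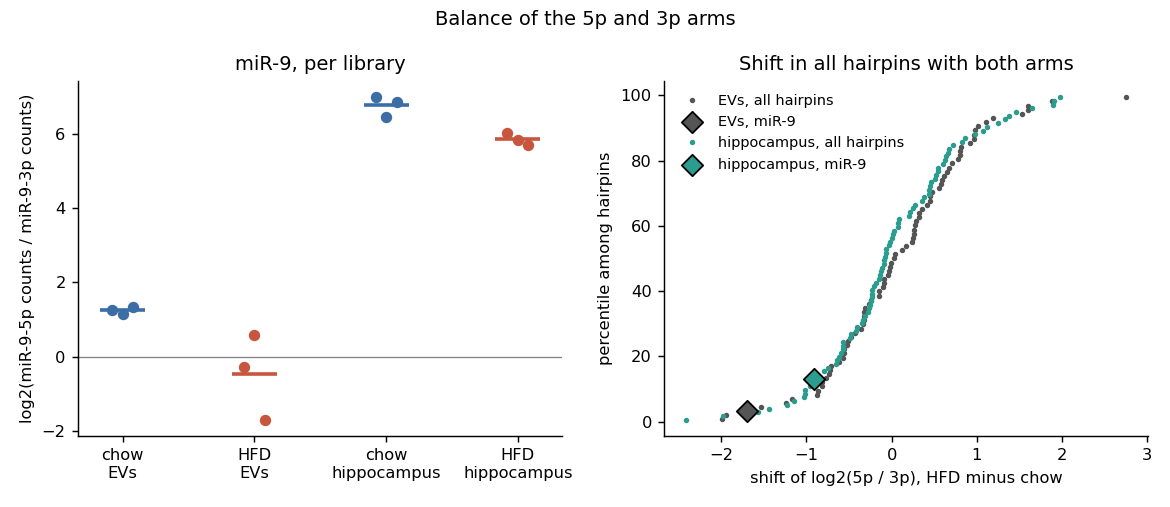
Left, log2 ratio of miR-9-5p to miR-9-3p counts per library with a bar at the mean of each group of 3. Right, shift of the log2 ratio, HFD minus chow (horizontal), against its percentile among hairpins (vertical), with miR-9 as a diamond. The hairpins have both arms at 10 CPM or more on average. miR-9 ranks 3 from the lowest in EVs and 12 from the lowest in hippocampus.

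Other miRNAs of neurons and of blood cells were set beside miR-9, from lists written with earlier results of these data known. The calls and adjusted p of all list members are therefore a description. miR-124-3p, which neurons make in large amounts, was almost missing from EVs, with 3 counts over the chow and 5 over the HFD libraries. Its level was 0.484, 0.798 and 0 CPM in chow and 0.620, 0 and 0.470 CPM in HFD EVs. In the libraries with 0 counts, 3 counts, the limit that 0 allows, correspond to 1.41 and 1.64 CPM of the library total. In hippocampus miR-124-3p stood at 1735 to 6588 CPM in chow and 4527 to 6208 CPM in HFD libraries, above miR-9-3p in every HFD library.

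Of the 16 neuron miRNAs listed, 14 had an entry in EVs and 5 passed the filter on low counts. Of these, 0 were called higher or lower, against 3.34% and 1.03% of all miRNAs. No listed entry was at 0 in all EV libraries. Those 5 had a median log2 fold change of -0.41 against -0.13 over all miRNAs, and 2 of 5 were above 0. Their summed level was 1849 to 2999.6 CPM in chow and 1541 to 2037 CPM in HFD EVs, with overlap. Nearly all of it was miR-128-3p (433 to 1915.5 CPM in chow) and miR-218-5p (800.5 to 1328 CPM in chow), both of which are made outside the brain as well. Next came miR-129-5p at -0.76 (adjusted p = 0.282) and miR-132-3p at 1.05 on the log2 scale (adjusted p = 0.0956). The oligodendrocyte list summed to 6.01 to 16.8 CPM in chow and 9.24 to 13.2 CPM in HFD EVs, with 0 of 1 tested member called. Of the choroid plexus list 0 of 1 tested member was called, miR-204-5p, at -0.92 on the log2 scale (adjusted p = 0.180).

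In hippocampus, where all 16 neuron miRNAs were tested, 0 rose and 5 fell. Over all miRNAs 4.35% were called higher and 7.43% lower there. The median log2 fold change of the list was -0.40 against -0.13 over all miRNAs. The neuron miRNAs that fell were miR-129-5p (-1.05), miR-129-1-3p (-2.27), miR-129-2-3p (-1.70), miR-132-3p (-0.99) and miR-488-3p (-0.78), with adjusted p between 0.00322 and 0.0326. On the opposite strand miR-129b-3p held 99.5% to 99.8% of the miR-129-5p counts in each library. miR-124-3p stood at 0.31 (adjusted p = 0.629), miR-128-3p at 0.62 (adjusted p = 0.156) and miR-218-5p at -0.029 (adjusted p = 0.956). Of 4 oligodendrocyte members miR-338-3p rose (0.85, adjusted p = 0.0489), though its counts equalled those of miR-3065-5p on the opposite strand in every library. Of 3 tested choroid plexus members miR-1298-5p fell (-1.43, adjusted p = 0.0305).

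Most of the leukocyte list was higher in HFD EVs, as miR-9-3p was. Of its 9 members, all tested, 5 rose and 0 fell, while 3.34% of all miRNAs were called higher. The median log2 fold change of the list was 1.94 against -0.13 over all miRNAs. miR-155-5p changed little, at 0.17 (adjusted p = 0.924) with overlap. The list was written with earlier results of these data known, so its calls and adjusted p are a description. The summed level was 5773 to 7357 CPM in chow and 12079 to 20927 CPM in HFD EVs, without overlap. Most of this sum was miR-146a-5p, at 4440 to 5364 CPM in chow and 9044 to 14144 CPM in HFD EVs. miR-223-3p, a miRNA of neutrophils and other myeloid cells, rose by 3.12 (adjusted p = 0.0226) and miR-342-3p, abundant in lymphocytes, by 2.53 (adjusted p = 0.0233) on the log2 scale. miR-223-5p (1.40, adjusted p = 0.0483), miR-142a-5p (1.94, adjusted p = 0.0483) and miR-146a-5p (1.28, adjusted p = 0.0364) rose as well. These calls are lost too when chow library 1, chow library 2, HFD library 1 or HFD library 2 is left out, since edgeR then called 0 miRNAs. The part of leukocytes or their vesicles in the miR-9 levels was not tested.

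For the counts that follow, the shares of all miRNAs called were 3.34% higher and 1.03% lower in EVs. In hippocampus they were 4.35% higher and 7.43% lower. There 0 of 8 tested leukocyte members rose and miR-146a-5p fell (-1.20, adjusted p = 0.0242), at a median of -0.76. The red cell list had 0 of 4 tested members called in EVs (median 0.39), and in hippocampus 0 rose and miR-451a fell (-2.05, adjusted p = 0.0285; list median -0.94). Of the endothelial pair miR-126a-3p fell in EVs (-1.37, adjusted p = 0.0217), and miR-126a-5p rose in hippocampus (0.90, adjusted p = 0.0489). The fat cell list summed to 320899 to 827725 CPM in chow and 203667 to 258651 CPM in HFD EVs, nearly all of it miR-148a-3p. That miRNA averaged 11398 CPM in hippocampus as well, so the sum cannot check the label of the EVs. In EVs 0 of the 6 fat cell members rose and 2 fell, miR-143-3p (-1.97, adjusted p = 0.0217) and miR-193a-3p (-1.74, adjusted p = 0.0364), with a median of -1.11. In hippocampus 2 of 5 tested members fell, miR-148a-3p (-1.40, adjusted p = 0.0200) and miR-193b-3p (-1.76, adjusted p = 0.0242), with a median of -0.61.

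Which miRNAs varied most like miR-9-3p over the 6 EV libraries was measured as the root mean square distance between log2(CPM + 1) profiles, each centred on its own mean. Of 332 miRNAs with at least 10 CPM on average, miR-342-3p was nearest (0.44) and miR-223-3p next (0.46), against a median distance of 1.91. miR-362-5p (0.75), miR-27b-5p (0.84) and miR-150-5p (0.85) followed. Its own hairpin partner miR-9-5p came 17th at 1.08, and miR-9b-5p 11th at 0.95. miR-342-3p stood at 74.5, 64.2 and 184 CPM in chow and 609.9, 612 and 639 CPM in HFD EVs, so that chow library 3 was the highest of the group, as for miR-9-3p. miR-223-3p was also highest in chow library 3 of its group, at 8.23, 15.2 and 35.4 CPM, and stood at 192, 146 and 168 CPM in HFD EVs. The profiles were centred but not scaled, so a diet change of like size is enough to bring miRNAs close. By log2 fold change miR-223-3p ranked 2 and miR-342-3p ranked 3 in EVs, next to miR-9-3p, while miR-9-5p stood at 2.01. Distances of this kind thus largely repeat the contrast by which the members were chosen. They rest on 6 libraries and are given as a description.

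Over the 6 hippocampus libraries the nearest of 369 miRNAs to miR-9-5p were miR-146b-5p (0.059), miR-21a-5p (0.092), miR-431-3p (0.0999), miR-320-3p (0.11) and miR-344-3p (0.13), against a median of 0.49. All 5 were highest in chow library 3, as miR-9-5p was. miR-9-3p ranked 188 at a distance of 0.49, close to the median, and miR-9b-5p ranked 364.

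**Figure D4:**
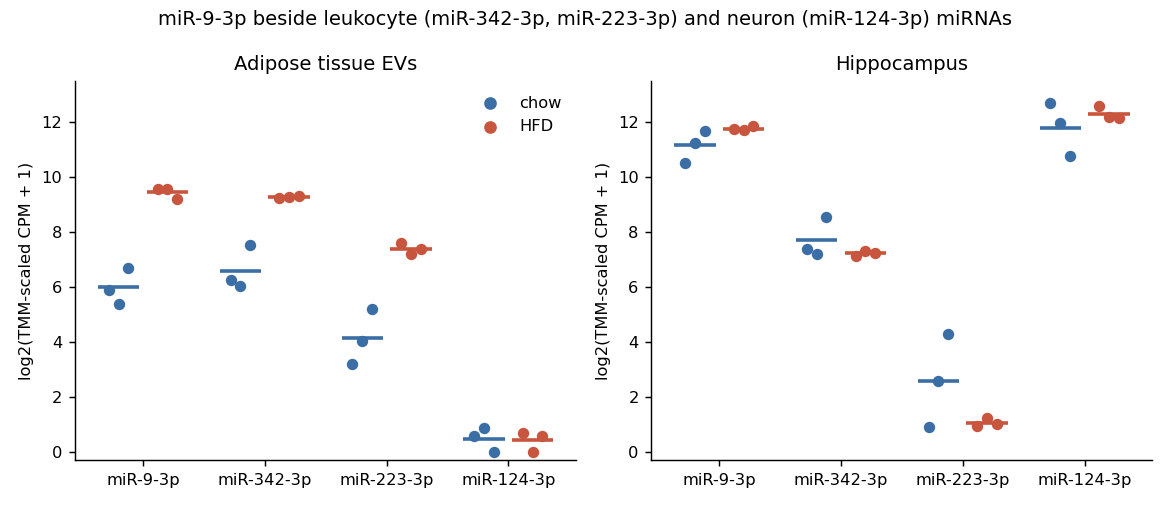
miR-9-3p beside the leukocyte miRNAs miR-342-3p and miR-223-3p and the neuronal miR-124-3p as log2(CPM + 1), one point per library and a bar at the mean of the log values of each group of 3. In EVs the first 3 are higher in all HFD than in all chow libraries and miR-124-3p rests on 8 counts over the 6 libraries. The leukocyte miRNAs shown are the nearest to miR-9-3p in profile over these same libraries, so their likeness is a description. miR-155-5p of the same list, not shown, overlapped between diets. In hippocampus miR-9-3p and miR-124-3p are both above 1000 CPM in every library. miR-342-3p stands there at 137.5 to 374 CPM and miR-223-3p at 0.880 to 18.7 CPM.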

How the data were processed

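The authors deposited raw read counts of small RNA entries, with libraries as columns, per the file headers. The submitters' processing notes name Bowtie. Build, annotation, counting tool and use of strand: not given in the sources used here. In the hippocampus data 5 entries with blank values (at most 3 counts in the rest of the entry) and 1 column of per-sample values, headed as HFD library 4, that matched no sample were left out. Library totals were 1825488 to 5941955 counts in EVs and 2331091 to 12874600 in hippocampus, where 3 counts, taken as the floor, correspond to 0.505 to 1.64 and 0.233 to 1.29 CPM (counting error only, since reads are not independent molecules).

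Counts were analysed with edgeR 4.0.16 (R 4.3.3): filterByExpr, TMM, quasi-likelihood F test with robust fitting, two-sided, Benjamini-Hochberg adjusted over all miRNAs of the sample type, and called at an adjusted p under 0.05. A standard error is the log2 fold change over the square root of F. The fit was tested on simulated data with the same dispersion for every miRNA, so outlying libraries were not covered. Replicate libraries differed by a chi-square of 80.4 to 704 per degree of freedom, more than sequencing the same library again would give. This does not tell separate animals from technical libraries of the same pool. Alternatives were other size factors, totals, no filter, no robust fitting, DESeq2 1.42.0, entries of nearly equal counts (within 5% in every library, at least 5 CPM) kept once, a replicate block and leaving out each library. Sequences and loci came from RefSeq and GENCODE M21 (GRCm38). The exact permutation test used SciPy 1.17.1.

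The members and the 7 lists (neuron, oligodendrocyte, choroid plexus and ependyma, leukocyte, red cell, endothelium, fat cell) were chosen with earlier results of these data known. Of other miRNAs, list members that were called or among the most abundant, the 5 nearest in profile and the 3 hairpins with the largest arm shifts each way are named.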

Additional observations from a re-analysis of the deposited data

How the results depend on the processing

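The log2 fold changes of the miR-9 and miR-9b arms in EVs kept their direction under all alternatives run. When single libraries were left out, miR-9-3p in EVs lay between 3.14 and 3.96, miR-9-5p between 1.34 and 2.65, miR-9b-5p between 2.04 and 2.996 and miR-9b-3p between 1.34 and 2.64. In hippocampus the ranges were 0.31 to 0.89 for miR-9-3p, 0.91 to 2.21 for miR-9b-5p and -0.53 to 0.071 for both miR-9-5p and miR-9b-3p, whose sign turned without chow library 3, where miR-9-3p passed the threshold at 0.89; the cause was not tested. miR-9b-3p has no value with entries of nearly equal counts kept once. The number of miRNAs called was less stable. In EVs it was 17, and 29 with DESeq2 size factors, 38 with totals, 56 without a filter, 53 with DESeq2, 31 with such entries kept once and 0 to 21 with single libraries left out. In hippocampus it was 65, and 33 with totals, 110 with DESeq2 and 8 to 123 with single libraries left out. Libraries with the same replicate number did not deviate together (correlations of -0.27 to -0.037 in EVs and -0.445 to 0.098 in hippocampus). With 3 libraries per group this cannot exclude a pairing, and the main fit used none. A replicate block called 9 miRNAs in EVs and 35 in hippocampus, with miR-9b-5p in EVs no longer called. The log2 fold change of miR-9-3p was then 3.49 in EVs and 0.61 in hippocampus. The difference in the ratio of miR-9-5p to miR-9-3p lay between -1.71 and -1.44 in EVs and between -1.02 and -0.85 in hippocampus with summed counts, medians or a replicate block. Depth limits miR-9b-5p most, at 23 to 48 counts in chow EV libraries and 20 in chow hippocampus library 3.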

Other observations

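The profile of miR-9-5p over the 6 EV libraries, looked at after the values were seen, had other nearest neighbours than that of miR-9-3p, with miR-150-5p among the first 5 of both. Of 331 miRNAs the nearest was miR-142a-3p at a root mean square distance of 0.38 on the log2 scale, with miR-142b, which lies on its opposite strand and held the same counts, level with it. miR-142a-5p (0.48), miR-150-5p (0.54), miR-27a-5p (0.65) and miR-140-5p (0.66) came next, against a median of 1.37, while miR-9-3p ranked 62 at 1.08. miR-142a-3p, a miRNA of all blood cell lineages, stood at 107, 91.0 and 120.1 CPM in chow and 558, 971 and 189 CPM in HFD EVs. miR-150-5p, which is abundant in mature lymphocytes, stood at 114, 33.5 and 133 CPM in chow and 347, 939.9 and 217 CPM in HFD EVs. For both, as for miR-9-5p, HFD library 2 was the highest and HFD library 3 the lowest of the HFD group. miR-9-3p, miR-342-3p and miR-223-3p had HFD values that lay closer together.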
